A study of Mus musculus with 12 samples.

Results

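Antigen presentation by MHC class I was examined in 10 genes: the heavy chain genes H2-K1, H2-D1, H2-Q2, H2-T22, H2-T23 and H2-T26, the light chain gene B2m, and the peptide loading genes Tap1, Tap2 and Tapbp. They were chosen by symbol from a table of 12339 genes, in which all 10 were found, and were followed library by library. RNA came from macrophages drawn into the peritoneal cavity with thioglycolate and collected by lavage. Mice of each genotype, WT and meKO, were kept on chow or on HFD, a high-fat Western diet, and each of these 4 groups gave 3 libraries. Prkce encodes protein kinase C epsilon, the myeloid kinase of the series title, and meKO is taken to mean its deletion in myeloid cells; the labels name neither the driver of the deletion nor the mouse strain. Animals of all 4 groups, chow groups included, received AAV8PCSK9 at 8 weeks of age, a virus that lowers the hepatocyte LDL receptor, and macrophages were taken 4 weeks later. Every group therefore shares the virus and the thioglycolate, and the groups differ by genotype and diet.

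An MHC class I molecule is a heavy chain that pairs with beta-2 microglobulin, the product of B2m, and displays a short peptide at the cell surface to T cells and natural killer cells. Peptides made mostly by the proteasome are carried into the endoplasmic reticulum by the transporter formed from Tap1 and Tap2, and tapasin, the product of Tapbp, holds the empty heavy chain beside the transporter until a peptide fits. H2-K1 and H2-D1 are the classical heavy chains. The genes of the Q and T regions encode nonclassical ones, among them H2-T23, whose product Qa-1 is a ligand of inhibitory receptors on natural killer cells, and H2-T22, whose product is recognised by some gamma delta T cells. All but B2m lie in the H2 region of mouse chromosome 17, which is rich in near-identical copies and differs widely between mouse strains.

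The promoters of 5 heavy chain genes are shown because these genes split into 3 patterns of expression. Each window runs from 250 bases before to 50 bases after a transcription start listed by RefSeq on GRCm38.p6, read 5′ to 3′ on the gene's strand. H2-T26, listed by RefSeq as Gm8909, was matched by its Entrez identifier, and its window is not shown. The windows lie on the minus strand for H2-K1 (chr17:34000298-34000597, the first of 2 listed starts), H2-T22 (chr17:36042693-36042992) and H2-T23 (chr17:36032652-36032951), and on the plus strand for H2-D1 (chr17:35262844-35263143) and H2-Q2 (chr17:35342057-35342356). Capitals mark 4 motifs searched on both strands, which nowhere overlapped: the kappa-B core of the class I enhancer (GGGG, ATT and CCCC in a row), the X2 site core TGACGC, the interferon response core (GAAA and GAAA with any 2 bases between) and the CCAAT box.
H2-K1: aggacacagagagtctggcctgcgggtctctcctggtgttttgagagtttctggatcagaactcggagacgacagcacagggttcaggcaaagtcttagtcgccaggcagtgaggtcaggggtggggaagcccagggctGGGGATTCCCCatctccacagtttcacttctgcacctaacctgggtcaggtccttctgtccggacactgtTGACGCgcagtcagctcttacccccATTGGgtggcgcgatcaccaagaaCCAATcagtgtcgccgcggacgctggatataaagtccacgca
H2-D1: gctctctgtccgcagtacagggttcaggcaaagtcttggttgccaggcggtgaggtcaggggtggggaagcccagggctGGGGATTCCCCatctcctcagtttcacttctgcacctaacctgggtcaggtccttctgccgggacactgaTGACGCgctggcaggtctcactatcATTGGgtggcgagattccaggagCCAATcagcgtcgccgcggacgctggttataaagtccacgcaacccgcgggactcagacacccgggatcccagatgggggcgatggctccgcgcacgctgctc
H2-Q2: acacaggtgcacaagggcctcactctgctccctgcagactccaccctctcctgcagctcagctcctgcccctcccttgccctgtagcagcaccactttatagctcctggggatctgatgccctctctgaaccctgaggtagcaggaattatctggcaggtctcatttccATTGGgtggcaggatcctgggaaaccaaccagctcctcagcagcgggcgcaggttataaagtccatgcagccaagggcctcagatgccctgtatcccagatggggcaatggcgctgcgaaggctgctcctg
H2-T22: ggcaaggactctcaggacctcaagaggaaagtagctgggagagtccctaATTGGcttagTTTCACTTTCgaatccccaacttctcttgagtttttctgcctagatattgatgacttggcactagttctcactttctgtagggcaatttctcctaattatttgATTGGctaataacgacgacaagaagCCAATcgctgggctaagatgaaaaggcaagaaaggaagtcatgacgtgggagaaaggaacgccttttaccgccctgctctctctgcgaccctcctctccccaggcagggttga
H2-T23: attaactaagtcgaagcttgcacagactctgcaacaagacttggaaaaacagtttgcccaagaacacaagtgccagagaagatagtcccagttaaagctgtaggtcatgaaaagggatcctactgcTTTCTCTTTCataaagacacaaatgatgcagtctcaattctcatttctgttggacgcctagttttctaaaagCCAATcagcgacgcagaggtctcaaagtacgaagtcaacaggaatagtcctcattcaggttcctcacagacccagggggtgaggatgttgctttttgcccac

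The kappa-B core and the X2 core were found in the windows of H2-K1 and H2-D1 and in none of the other 3. Among 32851 promoter windows of the same length, 0.0304% held that kappa-B core and 7.4% held the X2 core. The interferon response core was found once in H2-T22 and once in H2-T23, and in 3.44% of all windows. A CCAAT box, found in 37.4% of all windows, was present in each of the 5. The most alike of the 10 pairs of windows shown were H2-D1 and H2-Q2, with 59.8% identity over 323 aligned columns, and H2-K1 and H2-D1, with 59.3% over 361. The window of H2-T26, not shown, was closer to that of H2-Q2, with 86.7% identity over 309. These are matches of letters in the reference genome and were not measured in these cells.

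Library totals ran from 25844958 to 37282772 counts. The targeted gene, Prkce, stood at 2.01 to 4.44 CPM (counts scaled to library size, with TMM factors) in the 6 WT libraries and at 0.950 to 1.78 CPM in the 6 meKO libraries. All 8 macrophage markers examined were listed. Cd68 was at 2538 to 3658 CPM and Adgre1 at 513 to 697 CPM over all libraries. In meKO chow replicate 2 they were at 3350.1 and 597 CPM. Lyz2 was at 30482 to 53835 CPM in the WT libraries. It was at 69.3 CPM in meKO chow replicate 2 and at 16293 to 21309 CPM in the remaining meKO ones. Lyz2 thus did not overlap between genotypes, but was not called (-1.22 ± 0.88 averaged over diets, edgeR adjusted p = 0.468). The labels number the libraries individually but do not state that each is a separate mouse, so p-values measure the spread between these samples. In bulk RNA, fewer cells of a type and less RNA per cell cannot be told apart.

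B2m and the classical heavy chains were the most abundant of the 10 genes. Per kilobase of transcript, the median level over the 12 libraries was 4680.5 CPM for B2m, 1628 CPM for H2-D1 and 684 CPM for H2-K1, and the ranges of these 3 genes over the libraries did not overlap. H2-T23 had a median of 81.7 CPM per kilobase and Tapbp 79.5, and the range of H2-T23 spanned that of Tapbp. H2-T22 followed with 18.1, Tap1 with 13.5, H2-T26 with 7.72, Tap2 with 7.43 and H2-Q2 with 7.30 CPM per kilobase. The ranges of the last 3 overlapped, as did those of H2-T22 and Tap1. All 10 genes passed the filter on low counts, and the smallest count in any library was 5, for H2-Q2.

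**Figure D1:**
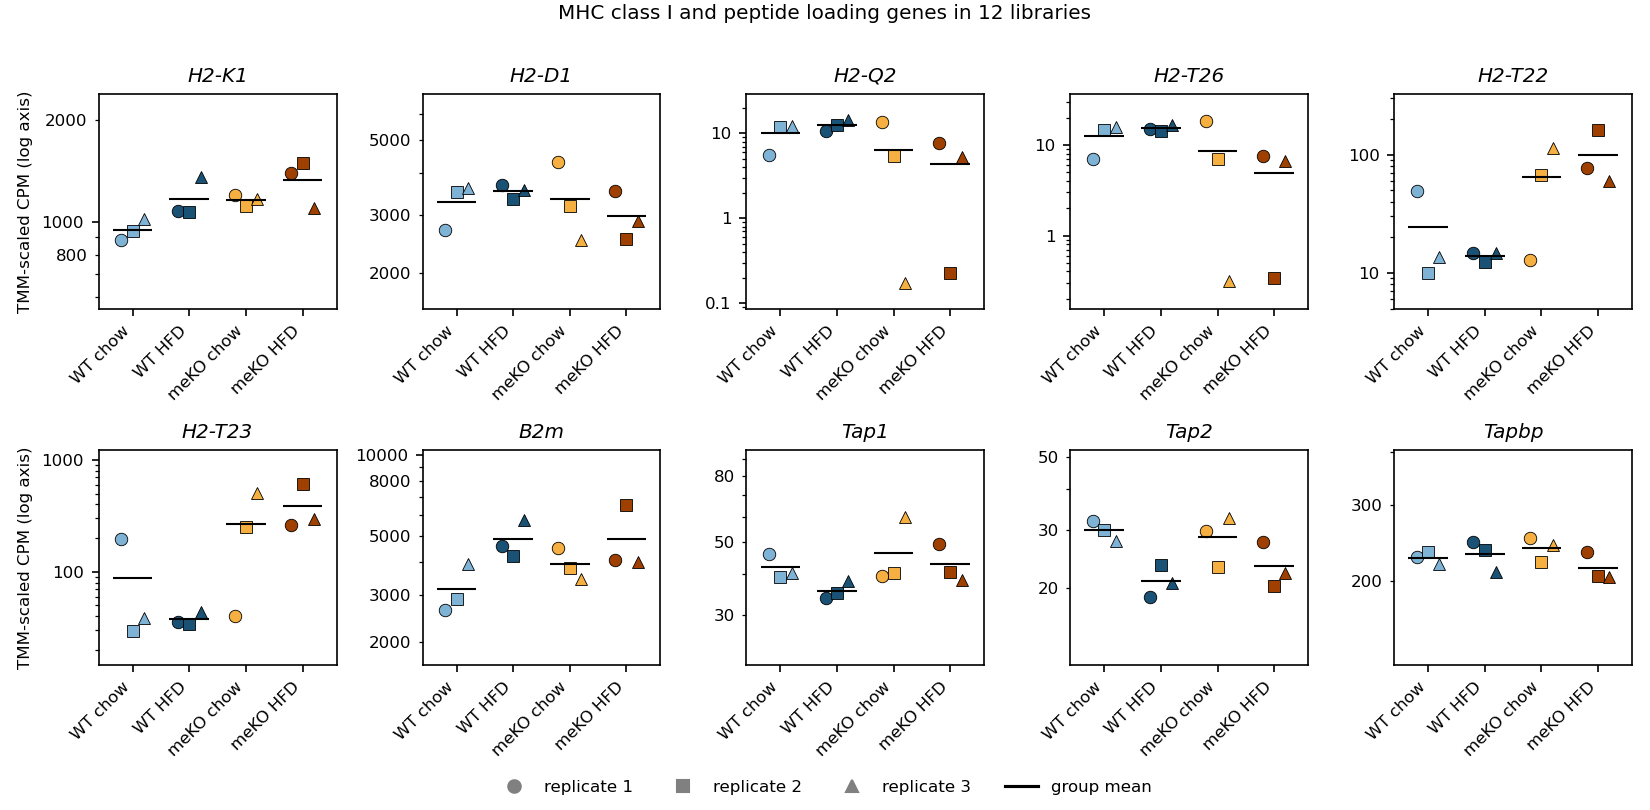
TMM-scaled CPM on log axes for the 10 genes in the 4 groups; each symbol is 1 library, its shape gives the replicate number and the bar is the group mean. H2-Q2 and H2-T26 lie at 0.173 to 0.343 CPM in 2 meKO libraries that are the highest for H2-T22 and H2-T23, while Tapbp stays between 204 and 252 CPM.

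H2-Q2 and H2-T26 varied over a wide range between libraries of the same group. In replicates 1, 2 and 3 of WT chow, H2-Q2 was counted at 5.63, 12 and 12.3 CPM, and in those of WT HFD at 10.7, 12.4 and 14.5 CPM. On chow, meKO gave 13.6, 5.43 and 0.173 CPM, and on HFD it gave 7.70, 0.229 and 5.32 CPM. In meKO chow replicate 3 and meKO HFD replicate 2 the gene was thus counted only 5 and 6 times, although the other libraries held up to 497 counts.

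H2-T26, a T-region heavy chain gene, gave the same picture. It stood at 7.04, 14.7 and 15.8 CPM in WT chow, at 15, 14.4 and 16.9 CPM in WT HFD, at 18.4, 6.97 and 0.311 CPM in meKO chow and at 7.65, 0.343 and 6.75 CPM in meKO HFD. The 2 lowest libraries, with 9 counts each, were the same as for H2-Q2. Across all libraries the highest value exceeded the lowest 83.7-fold for H2-Q2 and 59.2-fold for H2-T26.

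H2-T23 and H2-T22 ran the other way. H2-T23, the Qa-1 gene, was at 197, 29.5 and 38.4 CPM in WT chow, at 35.6, 33.9 and 43.3 CPM in WT HFD, at 40.1, 250.2 and 505 CPM in meKO chow and at 260.5, 608 and 295 CPM in meKO HFD. Its 2 highest libraries were the 2 with the fewest counts of H2-Q2 and H2-T26. H2-T22 was at 49.2, 10 and 13.7 CPM in WT chow, at 14.6, 12.4 and 14.6 CPM in WT HFD, at 12.9, 66.8 and 113 CPM in meKO chow and at 76.7, 162 and 59.6 CPM in meKO HFD. For both genes WT chow replicate 1 was the highest WT library, and meKO chow replicate 1 lay within the WT range.

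The 12 libraries fell into 3 sets on these 4 genes. The 2 libraries lowest for H2-T26 were meKO chow replicate 3 and meKO HFD replicate 2. The next 4 were WT chow replicate 1, meKO chow replicate 2 and meKO HFD replicates 1 and 3, and the 6 highest were WT chow replicates 2 and 3, all 3 WT HFD libraries and meKO chow replicate 1. H2-Q2 ranked the sets in the same order and H2-T22 and H2-T23 in the opposite order, with no overlap between the sets for any of the 4 genes. The sets do not follow diet, and each genotype has libraries in more than 1 set, but they are uneven between genotypes. Both lowest libraries are meKO, and WT chow replicate 1 is the only WT library of the middle set. In the highest set meKO chow replicate 1 is the only meKO library. On HFD every WT library is in the highest set and no meKO library is. Total counts in the 2 lowest libraries, 28714512 and 28023906, lay within the range of the others.

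**Figure D2:**
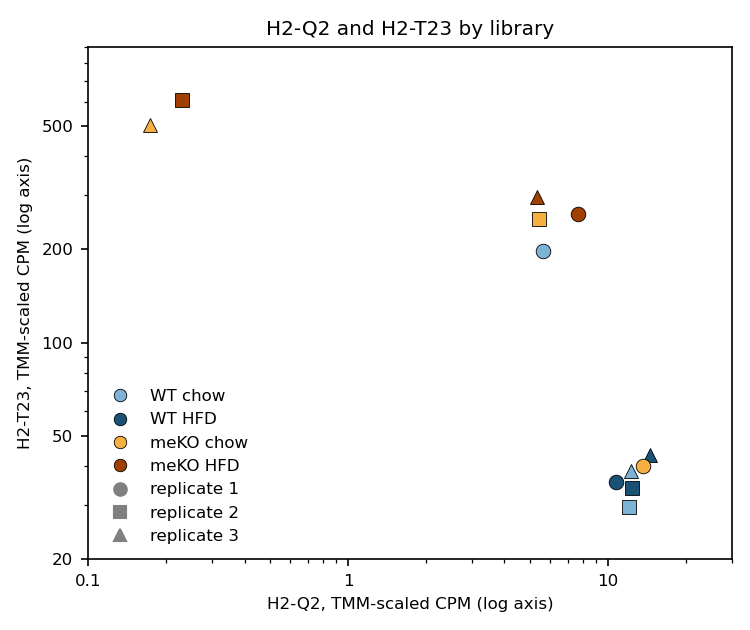
H2-T23 against H2-Q2 in TMM-scaled CPM, both axes logarithmic, 1 point per library coloured by group and shaped by replicate number. The points form 3 clumps, with 2 meKO libraries at the upper left, 4 libraries in the middle and 6 at the lower right.

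Genes that ranked these 3 sets without overlap were few and lay mostly on chromosome 17. Of the 12339 genes, 17 ranked the sets as H2-T26 does, H2-T26 and H2-Q2 included, and 10 ranked them in the opposite order, H2-T22 and H2-T23 included. Of the 15 genes of the first kind with a RefSeq position, 14 lay on chromosome 17, all within chr17:33919478-36143812, the stretch from the start of Tapbp to the left end of H2-T26 that holds 107 genes of the table. Of the 10 of the second kind, 9 lay on chromosome 17, and 6 of them in that stretch. The order was defined on H2-T26 itself, so these counts describe the pattern and test nothing.

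The genes named next were picked after their values were seen. Those with the same order included the Q-region genes H2-Q1, H2-Q4 and H2-Q10, the T-region genes H2-T10 and H2-T25, H2-Bl and the class II gene H2-Ea, which was listed at 0 counts in both lowest libraries and at 6.02 to 11.9 CPM in the 6 highest. In the opposite order stood H2-T24, the class II gene H2-Eb1 at 281 to 388 CPM against 6.58 to 11.4 CPM, and Rps18, a ribosomal protein gene, at 34.2 to 62.6 CPM against 1.44 to 2.17 CPM. Genes beyond the stretch were Zfp97, Zfp870 and 1700071M16Rik on chromosome 17, Hddc3 on chromosome 7 and Fut8 on chromosome 12, whose values differed little, from 60.6 to 82.9 CPM. Between these genes of like order lay many that did not share it, H2-K1, H2-D1, Tap1, Tap2 and Tapbp among them. Of those named, H2-D1 came nearest, with a rank correlation (Spearman) of 0.93 with H2-T26. Its middle and highest sets overlapped, with 3522 CPM in meKO HFD replicate 1 and 3330.2 CPM in WT HFD replicate 2.

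**Figure D3:**
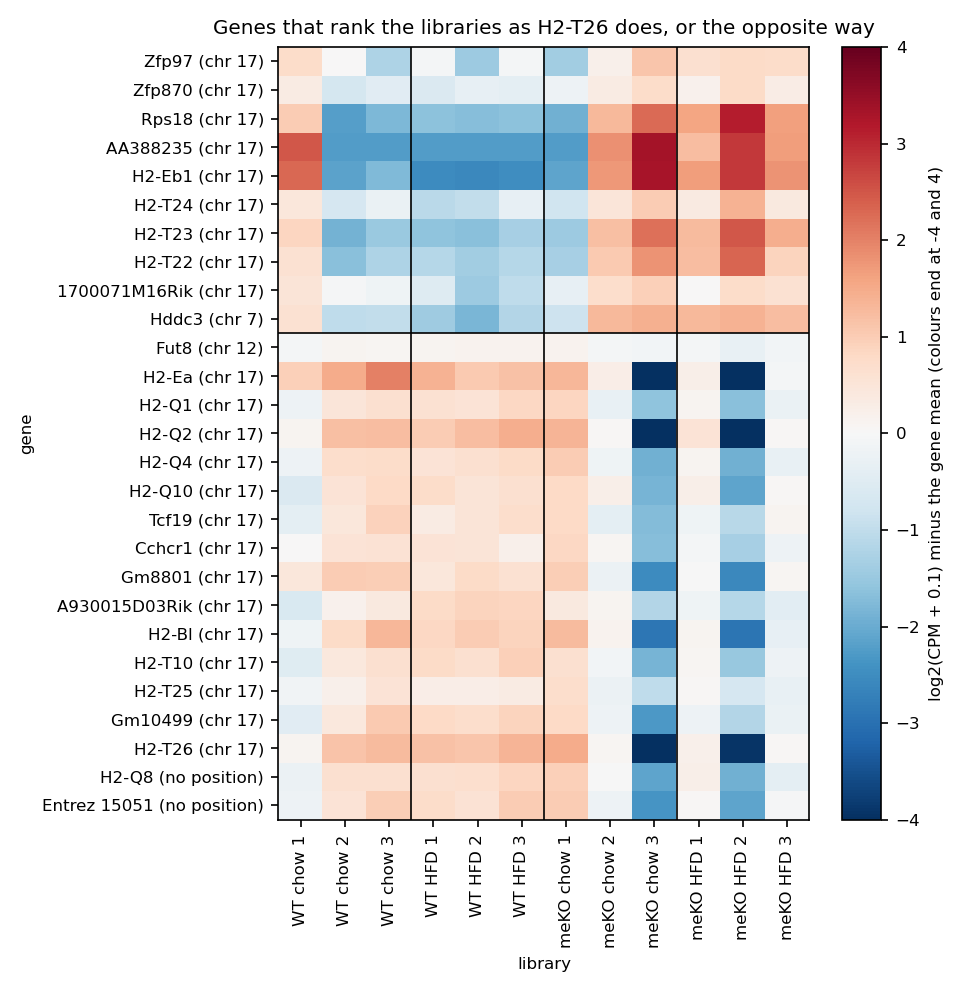
The 27 genes that rank the 3 sets of libraries as H2-T26 does (lower block) or in the opposite order (upper block), 1 column per library. Colour is log2(CPM + 0.1) minus the gene's mean over libraries and ends at -4 and 4. H2-Q2 and H2-Ea lie below -4 in meKO chow replicate 3 and meKO HFD replicate 2, and H2-T26 does so in meKO chow replicate 3. Vertical lines separate the 4 groups.

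The spread between replicates differed widely among the 10 genes. The within-group SD of log2 CPM was 2.04 for H2-Q2, 1.92 for H2-T26, 1.25 for H2-T23 and 1.08 for H2-T22, against a median of 0.210 over all genes. Of all genes, 99.9%, 99.9%, 99.7% and 99.5% had a smaller SD than these 4, in that order. The other 6 genes ranged from 0.0973 for Tapbp to 0.291 for B2m. Within the stretch, genes of high spread lay partly in runs. Each gene of the table from H2-Q1 to Cchcr1 had an SD of 0.686 to 2.04. From A930015D03Rik to H2-T26 each had one of 0.499 to 1.92. Elsewhere genes such as Rps18, at 1.48, and Gm8801, at 1.24, lay among genes of lower spread.

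**Figure D4:**
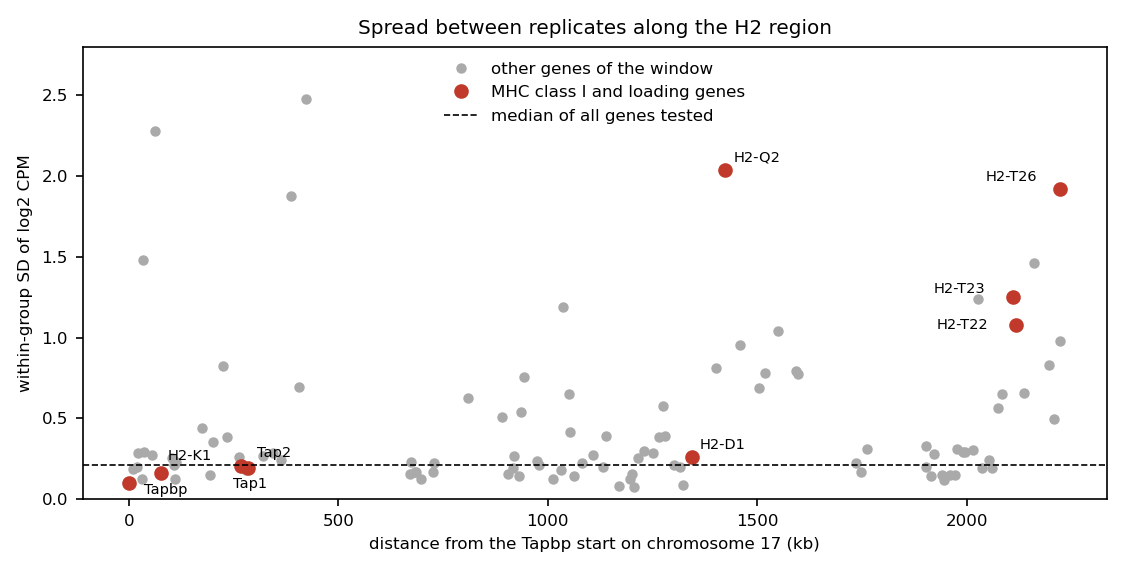
Within-group SD of log2 CPM for the 107 genes of the stretch against their distance from the start of Tapbp in kb; red points are the 9 class I and loading genes on chromosome 17 and the dashed line is the median of all genes tested, 0.210. H2-Q2, H2-T26, H2-T23 and H2-T22 lie above 1, as do some grey points such as H2-Ea at 2.48 and Rps18 at 1.48. H2-K1, H2-D1, Tap1 and Tap2 lie between 0.163 and 0.259 and Tapbp at 0.0973.

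Part of the sequence of these transcripts occurs in other genes, and how reads from them were counted is not given in the sources used here. Of all 50-base stretches of the GENCODE M21 transcript, 44.7% in H2-T22 and 28.8% in H2-T23 were found in another gene as well, compared with 14.3% in H2-T26, 14.3% in H2-D1, 8.79% in H2-K1, 8.74% in H2-Q2 and at most 2% in Tapbp, Tap1, Tap2 and B2m. H2-T22 shared 37.9% of its stretches with H2-T10, a gene that ranked the libraries in the opposite order to it. The levels of the heavy chain genes, the classical ones included, are uncertain to that extent. The mouse strain behind each library is not given in the labels, and its part in the 3 sets was not tested. Whether reads of these genes were aligned equally well in all libraries was not tested either, so low counts here need not mean low expression.

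H2-D1 and H2-K1, the classical heavy chains, varied far less. H2-D1 was at 2693, 3516 and 3606 CPM in WT chow, at 3678, 3330.2 and 3555 CPM in WT HFD, at 4302, 3180.0 and 2513 CPM in meKO chow and at 3522, 2541 and 2874 CPM in meKO HFD. Its 2 lowest libraries were again meKO chow replicate 3 and meKO HFD replicate 2, but the whole range was 1.71-fold. H2-K1 was at 887, 943 and 1018 CPM in WT chow, at 1079.9, 1068 and 1363 CPM in WT HFD, at 1199, 1112 and 1173 CPM in meKO chow and at 1396, 1494 and 1102 CPM in meKO HFD. The WT chow libraries were thus the 3 lowest for H2-K1.

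Genotype was compared first, since the study asks what myeloid Prkce does. Counts were tested with edgeR's quasi-likelihood test, and calls were made at an adjusted p under 0.05, by Benjamini-Hochberg over all genes. On chow, meKO against WT, 0 of the 10 genes were called, against 0.0810% of all genes, and 1 had an unadjusted p under 0.05. That was H2-K1, whose log2 fold change was 0.29 with an SE of 0.13 (adjusted p = 0.244 by edgeR). Its groups did not overlap, which held for 1 of the 10 genes and for 17.1% of all genes. H2-T23 differed by 1.58 ± 0.95, H2-T22 by 1.40 ± 0.82, H2-Q2 by -0.62 ± 1.08 and H2-T26 by -0.53 ± 1.05 and none of these 4 was called. Without meKO chow replicate 3, the values of H2-T23 and H2-T22 were 0.71 each, that of H2-Q2 -0.06 and that of H2-T26 0.02. Without WT chow replicate 1, H2-T23 stood at 2.97 and H2-T22 at 2.45, and without meKO chow replicate 1, H2-Q2 stood at -1.78 and H2-T26 at -1.73.

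On HFD, the 4 nonclassical genes did not overlap between genotypes, but 0 of the 10 genes were called, again against 0.0810% of all genes. H2-T23 was higher in every meKO library than in every WT library, by 3.37 ± 1.02 on the log2 scale (edgeR adjusted p = 0.778). H2-T22 was likewise higher in all, by 2.84 ± 0.86 (adjusted p = 0.778). H2-Q2 and H2-T26 were lower in all meKO HFD libraries, by -1.48 ± 1.11 and -1.64 ± 1.09 (adjusted p = 0.999 for each), and Tap1 was higher by 0.27 ± 0.16 (adjusted p = 0.999). Groups did not overlap for these 5 of 10 genes and for 10.3% of all genes, but 4 of the 5 share 1 order of libraries and are not independent. Every WT HFD library was in the set highest for H2-T26 and no meKO HFD library was. For these 4 genes genotype and set therefore cannot be told apart on HFD. The spread was estimated over all 12 libraries. Estimated from the 6 HFD libraries alone, edgeR called H2-T22 and H2-T23 (adjusted p = 0.0225 and 0.00274), and DESeq2 on all libraries called H2-T23 (adjusted p = 0.0303). In those settings 34 of 12330 and 53 of 12339 genes were called.

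Averaged over diets, H2-T23 differed by 2.47 ± 0.69 and H2-T22 by 2.12 ± 0.59 (edgeR adjusted p = 0.166 for each). Of the 10 genes, 0 were called, against 0.170% of all genes, and 3 had an unadjusted p under 0.05. DESeq2 called H2-T22 and H2-T23 here (adjusted p = 0.0113 and 0.00762), and so did voom when libraries were weighted by quality (0.023 and 0.0134). Over all genes DESeq2 called 366 of 12099 in this contrast and the weighted voom 3835 of 12339, a larger share than 2 of 10. H2-K1 differed by 0.24 ± 0.09 (edgeR adjusted p = 0.224). In the interaction of genotype with diet, 0 of the 10 genes were called, against 0.0162% of all genes, with the smallest adjusted p at 0.822. Other markers moved with genotype too. Of 6 neutrophil markers in the table, S100a9, Cxcr2 and Retnlg were called higher in meKO averaged over diets, 3 genes, and S100a9 also on each diet. S100a9 was at 0.196 to 0.963 CPM in WT and 1.87 to 4.69 CPM in meKO libraries. The list summed to 140.1 to 199.9 CPM in WT and 164 to 192 CPM in meKO libraries. The part of these cells in the genotype values was not tested.

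Diet gave the calls among these genes. In WT mice, B2m was higher and Tap2 lower on HFD, and these 2 of 10 genes were called, against 21.3% of all genes, so the share was close to the background. B2m was at 2641, 2909 and 3907 CPM in WT chow and at 4594, 4217 and 5740.2 CPM in WT HFD. All 3 HFD libraries lay above all 3 chow libraries, and B2m rose by 0.62 ± 0.20 on the log2 scale (edgeR adjusted p = 0.0462). B2m has the shortest transcript of the 10 genes, at 860 bases with a GC content of 41.2%. After a correction for transcript length and GC content its fold change was -0.0004 (adjusted p = 0.999). Leaving out WT chow replicate 1 or 2 also ended the call, as did leaving out any of the 3 WT HFD libraries or any of the 3 meKO chow libraries, with adjusted p from 0.0515 to 0.18. Calls over all genes fell as well in those fits, from 2634 to between 96 and 2391.

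Tap2, a subunit of the peptide transporter, was at 32.0, 30.1 and 27.9 CPM in WT chow and at 18.8, 23.5 and 20.8 CPM in WT HFD. It fell by 0.51 on the log2 scale, with an SE of 0.15 (edgeR adjusted p = 0.0321), and the groups did not overlap. The length and GC correction left -0.27 (adjusted p = 0.112). The call was lost without WT chow replicate 1 or 2 or WT HFD replicate 1 or 3, with adjusted p from 0.0994 to 0.137. Over all genes, between 96 and 460 were called in those fits, against 2634 with all libraries. Tap1, the other subunit, was at 46.2, 39.3 and 40.3 CPM in WT chow and at 33.8, 35 and 38.1 CPM in WT HFD, also without overlap, but its difference of -0.23 ± 0.16 was not called (adjusted p = 0.281). H2-K1, at 0.30 ± 0.13, was not called either (adjusted p = 0.107). Groups did not overlap for these 4 of 10 genes, against 39.3% of all genes.

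In meKO mice the diet contrast called 0 of the 10 genes, against 0.105% of all genes, and none had an unadjusted p under 0.05. B2m was at 4508, 3803 and 3435 CPM in meKO chow and at 4045, 6509 and 4006 CPM in meKO HFD, so the groups overlapped, and it differed by 0.31 ± 0.20. Tap2 was at 29.8, 23.2 and 32.7 CPM against 27.6, 20.4 and 22.2 CPM and differed by -0.28 ± 0.15 (adjusted p = 0.359). The diet effects in the 2 genotypes were not shown to differ: the interaction was -0.31 ± 0.29 for B2m and 0.23 ± 0.21 for Tap2 (adjusted p = 0.849 for each).

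Averaged over genotypes, B2m rose by 0.47 ± 0.14 (edgeR adjusted p = 0.0289) and Tap2 fell by 0.40 on the log2 scale, with an SE of 0.11 (adjusted p = 0.0168), 2 of 10 genes against 30.2% of all genes. H2-K1 differed by 0.25 ± 0.09 and was not called (edgeR adjusted p = 0.0576). It was called with DESeq2 (0.0316), and with edgeR without WT chow replicate 3 (0.0349) and without meKO HFD replicate 3 (0.0299). In those settings 4242, 5326 and 2740 of 12339 genes were called, in that order. Tap1 and Tapbp, at 39.6, 40.3 and 59.8 CPM and at 252, 222 and 242 CPM in meKO chow, were at 49.4, 40.7 and 38.4 CPM and at 234, 205 and 204 CPM in meKO HFD. Tapbp was the steadiest gene of the 10, with 228, 233 and 219 CPM in WT chow and 246, 236 and 209.6 CPM in WT HFD. Without meKO chow replicate 3 and meKO HFD replicate 2, neither averaged call was kept, with B2m at 0.29 (adjusted p = 0.156) and Tap2 at -0.30 (adjusted p = 0.104). Over all genes the calls in this contrast also fell, from 3721 to 641 of 12339, so the loss is not particular to B2m and Tap2. B2m was likewise not called after the length and GC correction, at -0.04, or without any 1 of WT chow replicates 1 and 2, WT HFD replicate 3, meKO chow replicates 2 and 3 and meKO HFD replicate 2.

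Markers of other cells moved with diet too. Of 7 listed B cell markers, 4 fell in WT mice on HFD, Ighm, Cd22 and Fcmr among them, and the summed level of the list was 201 to 255 CPM in WT chow and 115 to 139.6 CPM in WT HFD. The 8 dendritic cell markers summed to 33.6 to 53.8 CPM in WT chow and 19.5 to 29.1 CPM in WT HFD, with Flt3 the 1 gene called lower. The 10 mesothelial and fibroblast markers summed to 41.3 to 65.6 CPM and 72.7 to 99.3 CPM, with Krt19, Krt8 and Dcn the 3 called higher. Of the neutrophil markers, S100a8 and S100a9 rose and Csf3r and Retnlg fell. Cd4 of the T cell list, Kit of the mast cell list and F5 and Alox15 of the resident macrophage list fell, and of the macrophage markers Cd14 rose and Mertk fell. Over all genes 21.3% were called in this contrast. Not every marker looked for was in the table. It held 7 of 8 B cell, 9 of 10 T and NK cell, 6 of 8 neutrophil and 8 of 10 eosinophil and mast cell markers. The part of these cells in the diet results of B2m and Tap2 was not tested.

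**Figure D5:**
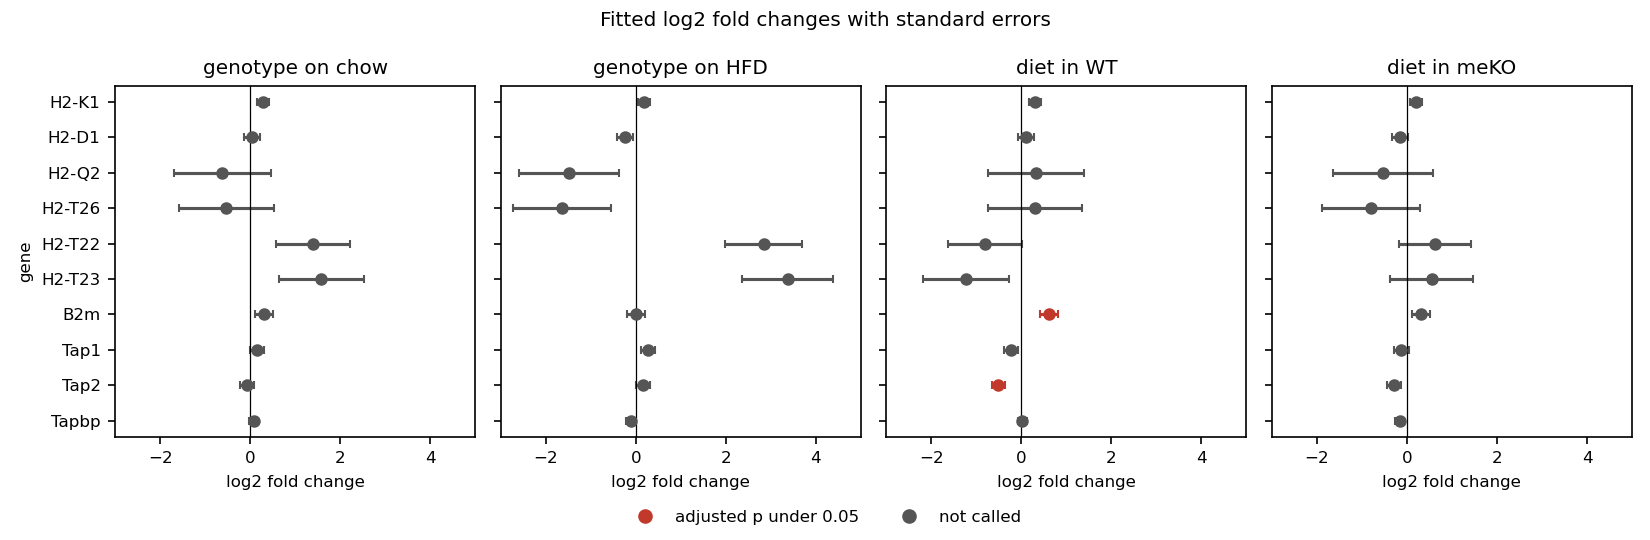
Log2 fold changes from edgeR with standard errors for the 10 genes in the 4 comparisons, meKO minus WT on each diet and HFD minus chow in each genotype. B2m and Tap2 on HFD in WT, in red, passed an adjusted p of 0.05, while the larger values of H2-T22 and H2-T23 on HFD, 2.84 and 3.37, carry standard errors of 0.86 and 1.02.

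The rest of the class I pathway was described from 4 lists. Of 19 genes of peptide supply and assembly, 3 rose and 3 fell in WT mice on HFD. Psmb8, an immunoproteasome subunit, rose by 0.42 ± 0.14 (edgeR adjusted p = 0.0465), and Psmb9, another, differed by 0.37 ± 0.18 without a call (adjusted p = 0.147). Named after their values were seen, Psmb10 and Psme2, a further immunoproteasome subunit and a proteasome activator subunit, rose, and Psme3, Lnpep and Npepps, an activator subunit and a pair of aminopeptidases, fell. The 6 of 19 stand against 21.3% of all genes, and the median of the list was 0.20, against -0.03 over all genes. Psmb8 passed in 12 of its 23 alternative settings. Averaged over genotypes, Psmb8 rose by 0.33 ± 0.10 (adjusted p = 0.024) and Psmb9 differed by 0.29 ± 0.13 without a call (adjusted p = 0.108).

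Of 20 genes of class I transcription, 0 rose and 4 fell in WT mice on HFD: Rfx5 and Nfya, which bind class I and class II promoters, Irf2 and Nfkb1, all 4 named after their values were seen. That share, 4 of 20, was close to the 21.3% of all genes. Nlrc5, the transactivator of class I genes, ran from 7.11 to 14.4 CPM over the 12 libraries and Irf1 from 44.2 to 76.3 CPM. Neither was called in any of the 7 contrasts, with the smallest adjusted p at 0.232 and 0.34. Of 25 interferon-stimulated genes in the table, 3 rose and 3 fell, again close to the 21.3% of all genes. Irf7, a transcription factor of the interferon response, rose by 0.78 ± 0.17 (edgeR adjusted p = 0.0134), Stat2, which carries type I interferon signals, fell by 0.68 (adjusted p = 0.0111), and Gbp7, a guanylate-binding protein gene, fell by 0.73 (adjusted p = 0.0148). Ciita, the transactivator of class II genes, fell by 1.88 on the log2 scale, with an SE of 0.27 (adjusted p = 0.00308).

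Of 35 other class I and class I-like genes, 20 were in the table. In WT mice on HFD, 1 of these 20 was called, Mr1, which fell, against 21.3% of all genes. Averaged over genotypes, 3 of these 20 rose and 1 fell, against 30.2% of all genes called. Procr, the endothelial protein C receptor, which has a class I-like fold, rose by 0.81 ± 0.14 (edgeR adjusted p = 0.00418), and Mr1, which presents microbial vitamin metabolites, fell by 0.53 (adjusted p = 0.0046). Ciita, lower by 1.4 (adjusted p = 0.00134), and Gbp7, lower by 0.64 (adjusted p = 0.00463), were called as well. In both genotype contrasts, in their average, in the diet contrast in meKO and in the interaction, 0 genes of the 4 lists were called. The smallest p there belonged to Ciita (-1.15 ± 0.26, adjusted p = 0.0794) and Nfkb1 (-0.57 ± 0.14, 0.0982) for genotype on chow, and to H2-T24 (1.57 ± 0.46, 0.617) and Gbp5 (-0.78 ± 0.28, 0.924) for genotype on HFD. For genotype over both diets they belonged to Ciita (-0.66 ± 0.19, 0.149) and Gbp7 (-0.38 ± 0.11, 0.16). For diet in meKO they were Procr (1.05 ± 0.19, 0.053) and Gbp5 (-1.09 ± 0.28, 0.14), and for the interaction Gbp2 (-0.42 ± 0.16, 0.773) and Ciita (0.97 ± 0.37, 0.773).

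Of the other class I genes, 6 ranked the 3 sets of libraries as H2-T26 does, 1 in the opposite order and 13 in neither. No gene of the peptide supply, class I transcription or interferon lists, 0 of 19, 0 of 20 and 0 of 25, followed the order in either direction. Over all 12339 genes only 17 had the same order and 10 the opposite one. A count of 0 in lists of this size is therefore not a result about these lists.

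The genes most like each member were taken as the 3 with the highest Pearson r of log2 CPM over the 12 libraries, a description without a test. For H2-Q2 these were H2-Bl (r = 0.986), H2-Ea (0.986) and H2-Q8 (0.984), and for H2-T26 they were H2-Bl (0.991), H2-Ea (0.988) and the unnamed Entrez gene 15051 (0.988). H2-T22 and H2-T23 were each closest to Rps18 (0.996 for both), then to H2-Eb1 (0.966 and 0.980) and AA388235 (0.964 and 0.977). The r of these 4 genes rests on the 3 sets of libraries. H2-D1 was closest to Ctu1 (0.934), H2-T25 (0.923) and H2-Q1 (0.895), and both H2-T25 and H2-Q1 ranked the sets as H2-T26 does. B2m was closest to Bst2 (0.987), a membrane protein gene, Rpl34-ps1 (0.984) and 3110040N11Rik (0.982), and H2-K1 to Acod1 (0.961), Trpm3 (0.931) and Flad1 (0.920), of which the first and second had at most 1.56 CPM. Tap1 was closest to Zfp952 (0.881), Daxx (0.863) and Tufm (0.835), of which Zfp952 and Daxx also lie on chromosome 17. Tap2 was closest to Anapc2 (0.951), Rnpepl1 (0.950) and Apobr (0.947), and Tapbp to Sec16b (0.883), Mknk2 (0.880) and Carhsp1 (0.866).

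Among the 10 genes themselves, r over the 12 libraries rounded to 1 between H2-Q2 and H2-T26 and was 0.99 between H2-T22 and H2-T23 and -0.80 to -0.83 between the 2 pairs. H2-D1 had 0.82 with both H2-Q2 and H2-T26 and -0.04 with H2-K1. H2-K1 and B2m had 0.82, Tap1 and Tap2 0.68, and B2m and Tap2 -0.74. The libraries are shared by all these values, so a shift of 1 library moves several of them.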

How the data were processed

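RNA of 12 libraries was measured by RNA-seq after Trizol extraction and TruSeq preparation, per the labels' protocols. The authors deposited whole-number read counts per gene; the submitters' processing notes name mm10 and DESeq2. The aligner, the counter and the strand setting are not given in the sources used here. All 12 columns were matched to samples by title, and groups come from the labels. Tests used edgeR 4.0.16 (R 4.3.3) with TMM factors, filterByExpr (which kept all 12339 genes), robust quasi-likelihood fits of 4 group means, two-sided, Benjamini-Hochberg adjusted p under 0.05. SE is the fold change divided by the square root of F. The smallest p of an exact permutation test on 1 gene would be 0.1. Log2 CPM used a prior count of 2. Scripts were tested on simulated data.

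The 12 replicate pairs differed by more than sampling noise (chi-square per degree of freedom at least 16.9). Alternatives were other scaling (median-of-ratios, library totals), no filter or a minimum of 10 counts in each library, DESeq2 1.42.0, voom (limma 3.58.1) with and without library quality weights, non-robust fits, only the compared libraries, length and GC offsets (mgcv 1.9.3; available for 93.5% of genes) and leaving out each library. Leaving out both libraries with the fewest H2-Q2 counts was chosen after seeing the data. The members, lists and tests were chosen with earlier results of these data known. From the lists, each contrast names the called genes of smallest p, at most 4, or else the 2 smallest as values, and always, by level or change, Nlrc5, Psmb8, Psmb9 and Irf1. Some items withheld for evaluation are not reported here. No promoter sequence of Tap2 was used here.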

Additional observations from a re-analysis of the deposited data

How the results depend on the processing

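Of 1168 values recomputed for 52 results, 1083 kept their direction and their side of the threshold, 47 lost a call, 32 gained one and 6 changed sign. The values without a filter are among the 1083 and could not differ, because the filter kept all 12339 genes. The number of the 10 genes called moved under the settings named next. For genotype on chow it went from 0 to 2 with voom and quality weights (H2-K1 and B2m). For genotype on HFD it went from 0 to 1 with DESeq2 and to 2 with only the compared libraries. For genotype averaged over diets it went from 0 to 2 with DESeq2 and with voom and quality weights. For diet in WT it went from 2 to 0 after the length and GC correction, to 3 with voom and quality weights (H2-K1 added), and ranged from 0 to 2 when 1 library was left out. For diet averaged over genotypes it went from 2 to 1 after that correction, to 0 without both libraries with the fewest H2-Q2 counts, to 3 with DESeq2 (H2-K1 added) and with voom and quality weights (Tap1 added), and ranged from 1 to 3 when 1 library was left out. The sign changed for B2m after the correction (-0.0004 for diet in WT, -0.07 in meKO and -0.04 averaged) and without both those libraries (-0.05 for diet in meKO), and for H2-T26 in genotype on chow without meKO chow replicate 3 (0.02; from -1.73 to 0.02 when 1 library was left out) or without both libraries (0.03). The cause of these changes was not tested. Library totals moved the median log2 fold change of all genes for diet in WT from -0.03 to -0.12. Over all genes, calls ranged from 96 to 6411 for diet in WT (2634 as reported), from 641 to 6298 for averaged diet (3721), from 2 to 4047 for genotype on chow (10), from 3 to 128 on HFD (10), from 5 to 3835 averaged (21), from 0 to 398 for diet in meKO (13) and from 1 to 295 for the interaction (2), the highest with voom and quality weights. No paired analysis was possible because the replicate numbers were given in accession order and pair nothing across groups. The levels of H2-Q2 and H2-T26 are imprecise in the 2 libraries with 5 to 9 counts, although the total counts of these libraries lay within the range of the others.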

Other observations

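Other heavy chain genes of the region and several class I-like genes were expressed in these macrophages, and those given here were chosen after their values were seen. H2-Q4, the most abundant Q-region gene among them, was at 170.0, 314 and 325 CPM in WT chow, at 285, 305 and 328 CPM in WT HFD, at 395, 174 and 51.5 CPM in meKO chow and at 208, 50.8 and 158 CPM in meKO HFD. H2-T10, the gene that shares most letters with H2-T22, was at 9.37 CPM in meKO chow replicate 3 and 12.1 CPM in meKO HFD replicate 2, against 24.5 to 67.3 CPM in the other 10 libraries. H2-M3, a heavy chain gene whose product presents formylated peptides, stayed between 34.3 and 67.8 CPM.

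Fcgrt, the heavy chain of the neonatal Fc receptor, which also pairs with B2m, was at 123 and 125 CPM in meKO HFD replicates 2 and 3 and at 181 to 241 CPM elsewhere. Cd1d1, which presents lipids, was at 11.7 CPM in meKO chow replicate 2, the library with 69.3 CPM of Lyz2, and at 3.18 to 5.37 CPM in the other 11.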
